A study of Mus musculus with 29 samples.

Results

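The clustered protocadherins are 58 genes of mouse chromosome 18 whose symbols start with Pcdha, Pcdhb or Pcdhg, and all 58 rows with such symbols were taken from the 25239 genes of the RNA count tables. They comprised 14 Pcdha, 22 Pcdhb and 22 Pcdhg genes. A filter on low counts left 57 of them among the 15383 genes tested; Pcdhb1 was the one removed. In the RefSeq annotation of GRCm38.p6 the Pcdha genes lie at chr18:36930285-37188897, the Pcdhb genes at chr18:37264998-37521419 and the Pcdhg genes at chr18:37661775-37841873.

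Clustered protocadherins are cell surface adhesion proteins that bind the same protein on a neighbouring cell. Each neuron transcribes its own small set of them, chosen promoter by promoter with the help of CTCF and cohesin, and the set gives neurites an identity by which branches of one cell avoid each other. A Pcdha or Pcdhg transcript joins one variable exon, which encodes the outer part of the protein, to constant exons shared by the whole cluster. A Pcdhb gene is a single exon with no shared part. The last genes of the Pcdha and Pcdhg clusters, Pcdhac1, Pcdhac2, Pcdhgc3, Pcdhgc4 and Pcdhgc5, are the C types, which are regulated apart from the alternate members.

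Poly(A) RNA of E11.5 mouse brain tissue was sequenced, and the question put to it was what loss of an enhancer does to expression. The 4 groups were wild-type midbrain, midbrain with the hs654 knockout, wild-type forebrain, and forebrain with the hs267-853 knockout. Each group had 2 replicates, and each replicate was a pool of dissected tissue from several embryos, so n = 2 stands behind every group value and a p-value measures the spread between pools. Strain, sex and whether a knockout was on one or both alleles are not given in the sources used here, and the 21 Hi-C samples were not analysed here. The deleted elements are enhancers, and the genotype labels were not checked by any gene here. The tissue labels were checked by regional genes. The summed level of 5 midbrain genes was 247.5 to 305.1 CPM (read counts scaled to the size of each library) in the midbrain libraries and 8.625 to 11.59 CPM in the forebrain libraries. Among them En2, a midbrain and hindbrain transcription factor gene, was at 0 in all 4 forebrain libraries. Total counts over genes ran from 9051632 to 18024406 per library, at which depth 3 counts equal 0.17 to 0.328 CPM.

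The rows of the Pcdha genes held nearly the same counts as each other, and so did those of the Pcdhg genes. In every library each Pcdha gene had between 100% and 130.9% of the count of Pcdha1, the lowest of the 14. Among Pcdhg genes, 20 had between 98.95% and 109.9% of the count of Pcdhga1. The exceptions were Pcdhgc3, which reached 154.6%, and Pcdhgb8, a transcribed pseudogene whose annotated end lies before that of the other members, with 41.76% to 49.42%. In addition, 3 rows outside the 58 genes, annotated as transcripts that run from a Pcdha variable exon into the Pcdhg constant exons (Gm37013, Gm38666 and Gm38667), held 98.5% to 100.1% of the count of Pcdhga1. The rows of a cluster share its constant exons in the annotation, and how reads in those exons were counted is not given in the sources used here. The 14 Pcdha rows and the 22 Pcdhg rows are therefore not separate measurements. A count of Pcdha or Pcdhg genes past a threshold mostly repeats 1 value per cluster, whereas the 22 Pcdhb genes each have their own value. Reads that could align to several similar protocadherins add uncertainty to any one member.

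**Figure D1:**
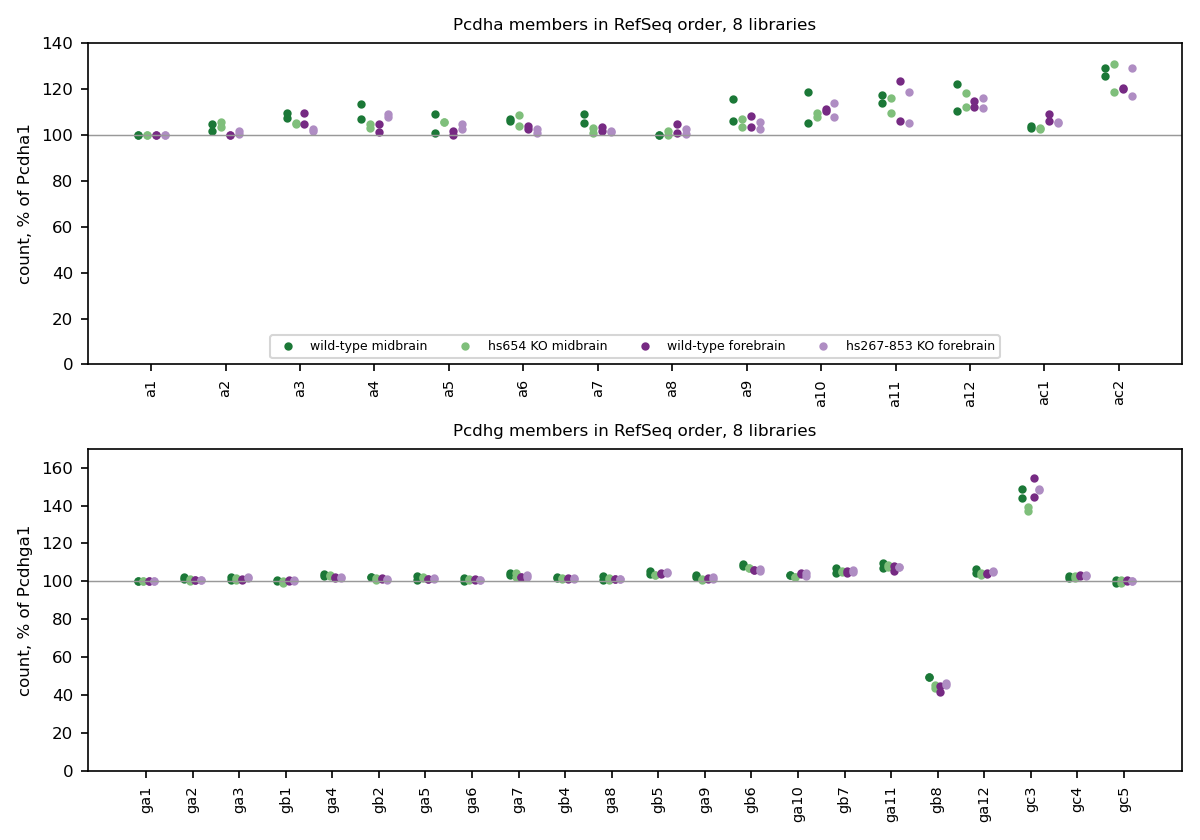
Count of each Pcdha gene as a percentage of Pcdha1 (top) and of each Pcdhg gene as a percentage of Pcdhga1 (bottom), with genes on the x axis in chromosomal order and 1 point per library, coloured by group. Nearly all points lie close to 100%; Pcdhgc3 stands above the others and the pseudogene Pcdhgb8 below them.

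The forebrain had less Pcdha and Pcdhb RNA and slightly more Pcdhg RNA than the midbrain at this stage. In wild-type midbrain the median Pcdha gene was at 12.59 CPM in replicate 1 and 19.49 CPM in replicate 2, and in wild-type forebrain it was at 8.823 and 6.462 CPM. Both forebrain pools lay below both midbrain pools, although the 2 midbrain pools themselves were far apart. The knockout groups gave 17.12 and 17.53 CPM in midbrain and 8.54 and 7.466 CPM in forebrain, which places them with the wild-type pools of their tissue. The sum of the 22 Pcdhb genes was 76.98 and 69.89 CPM in wild-type midbrain and 48.66 and 41.33 CPM in wild-type forebrain, again without overlap. It was 92.58 and 71.66 CPM in hs654 knockout midbrain and 48.68 and 39.42 CPM in hs267-853 knockout forebrain. The median Pcdhg gene was at 146 and 156 CPM in wild-type midbrain, 172.4 and 179.3 CPM in hs654 knockout midbrain, 197.5 and 169.6 CPM in wild-type forebrain, and 179.4 and 176.4 CPM in hs267-853 knockout forebrain. Wild-type midbrain was thus the lowest of the 4 groups for Pcdhg, and the other 3 groups overlapped. In tissue RNA, fewer cells that express a gene cannot be told apart from less RNA per cell.

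**Figure D2:**
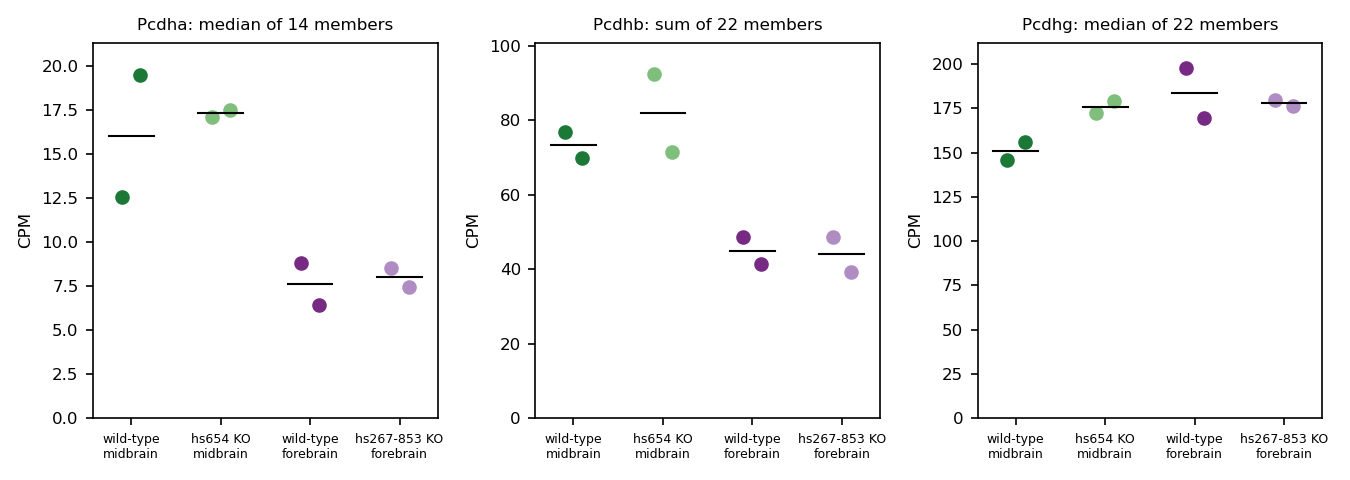
Level of each cluster in CPM, shown as the median of 14 Pcdha genes, the sum of 22 Pcdhb genes and the median of 22 Pcdhg genes; points are the 2 pools of a group and lines their mean. Both forebrain groups lie below both midbrain groups for Pcdha and Pcdhb, and wild-type midbrain is the lowest group for Pcdhg.

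In wild-type forebrain against wild-type midbrain, 43 of 57 clustered protocadherins passed the threshold, an adjusted p below 0.05 (edgeR quasi-likelihood, Benjamini-Hochberg over 15383 genes), against 29.6% of all genes tested. Of these, 22 were lower in forebrain (15.3% of all genes were) and 21 were higher (14.3% of all genes were). By cluster, 14 of 14 Pcdha genes fell, 8 of 21 tested Pcdhb genes fell and none rose, and 21 of 22 Pcdhg genes rose. The median log2 fold change was -1.06 for Pcdha, -0.88 for Pcdhb and 0.29 for Pcdhg, beside 0.0012 over all genes tested. For 28 genes both forebrain pools were below both midbrain pools (32.7% of all genes), and for 21 both were above (33.2% of all genes).

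The Pcdha log2 fold changes ran only from -1.12 to -0.97, the spread among near-identical rows. Pcdhac2, a C type needed for the tiling of serotonergic axons, had 14.9 and 23.2 CPM in wild-type midbrain and 9.98 and 7.43 CPM in wild-type forebrain. The forebrain pools were the lower ones without overlap, with a log2 fold change of -1.11 (SE 0.218, edgeR adjusted p = 0.00192). The row of Pcdhac1, the other C type of the cluster, had a log2 fold change of -0.97 (edgeR adjusted p = 0.00516), close to those of the other Pcdha rows. Its counts above the lowest row, Pcdha1, were 7 and 7 in midbrain and 11 and 5 in forebrain, and its call was lost without replicate 2 of wild-type midbrain (log2 fold change -0.61, edgeR adjusted p = 0.0669) and without replicate 2 of wild-type forebrain (-0.76, edgeR adjusted p = 0.0616). Of the alternate members, which are chosen at random in single neurons, the row of Pcdha4 had -1.12, that of Pcdha7 -1.09, and those of Pcdha5 and Pcdha9 -1.08 each. Wild-type midbrain replicate 1 was the lower of its pair for every Pcdha gene named here. Without replicate 2 of wild-type midbrain 10 of 14 Pcdha genes passed, without replicate 2 of wild-type forebrain 11 did, and in each other omission 14 did.

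The Pcdhb genes are the separate measurements, and 20 of the 21 tested had a negative log2 fold change. Pcdhb5 had 4.93 and 3.75 CPM in wild-type midbrain and 1.76 and 1.32 CPM in wild-type forebrain. Its forebrain pools were well below the midbrain pools, and it fell by 1.49 on the log2 scale (SE 0.324, edgeR adjusted p = 0.00389). Pcdhb20 behaved alike, with 5.00 and 4.87 CPM in midbrain, 2.24 and 1.63 CPM in forebrain, and a log2 fold change of -1.34 (SE 0.291, edgeR adjusted p = 0.0038). Of the 5 Pcdhb genes with the largest falls among those past the threshold, these 2 passed under all 15 alternative settings run for them. Pcdhb13 and Pcdhb15 had log2 fold changes of -1.61 (SE 0.798) and -1.45 (SE 0.546) and did not pass. Pcdhb9 had the largest fall of the 8, 1.86 on the log2 scale (SE 0.652, edgeR adjusted p = 0.0476), but on few reads: 18 and 9 counts in midbrain against 4 and 3 in forebrain, and it passed in 4 of 14 settings. Only the wild-type midbrain pools reached the level of the low-count filter for Pcdhb9. The gene was thus tested only through the group where it is high, and its call is no support for a fall. Pcdhb2 and Pcdhb4 fell by 1.16 and 1.17 on the log2 scale, and each passed in 10 of 15 settings. Pcdhb17 fell by 0.93 on the log2 scale, with 10.1 and 8.23 CPM in midbrain and 4.21 and 5.42 CPM in forebrain. Pcdhb3 and Pcdhb18, named to complete the 8, fell by 0.88 and 0.91 on the log2 scale. Pcdhb12 was the one gene with a positive value, 0.38 (SE 0.604, edgeR adjusted p = 0.679), from 8 and 10 counts in midbrain and 8 and 15 in forebrain. The values nearest 0 were log2 fold changes of -0.069 (SE 0.445) for Pcdhb6, -0.090 (SE 0.372) for Pcdhb21 and -0.14 (SE 0.254) for Pcdhb22. Whether Pcdhb genes differed from one another in their tissue difference was not tested. Leaving out 1 of the 4 wild-type libraries left 2 to 4 Pcdhb genes past the threshold, and DESeq2 called 3.

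**Figure D3:**
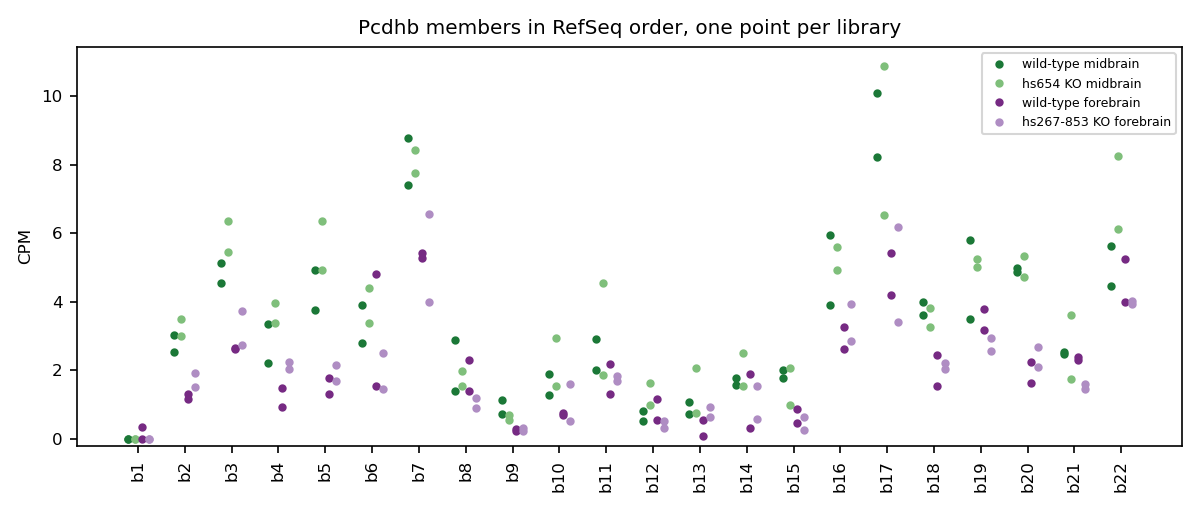
Level of each Pcdhb gene in CPM, genes on the x axis in chromosomal order and 1 point per library, coloured by group. Pcdhb7 and Pcdhb17 have the most counts, Pcdhb1 is near 0 throughout, and midbrain points lie above forebrain points for Pcdhb5 and Pcdhb20.

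For Pcdhg the tissue difference was small. Log2 fold changes of the 21 genes that passed ran from 0.26 to 0.32, and the pseudogene Pcdhgb8 had 0.10 (SE 0.0725, edgeR adjusted p = 0.315). Pcdhga1, the first gene of the cluster, had 142 and 153 CPM in wild-type midbrain and 194 and 167 CPM in wild-type forebrain. The forebrain pools were the higher ones, but replicate 1 stood well above replicate 2, and the log2 fold change was 0.30 (SE 0.0737, edgeR adjusted p = 0.00881). The rows of Pcdhgc4, a C type required for neuron survival, and Pcdhgc5, a C type found at synapses, each had a log2 fold change of 0.30, and those of the alternate members Pcdhga5, Pcdhga6, Pcdhga8, Pcdhga10, Pcdhgb1 and Pcdhgb5 had 0.29 to 0.30. These values are near the 0.30 of Pcdhga1. By the counts above Pcdhga1 (the count of a row minus that of Pcdhga1), none of these 8 genes passed. By those counts Pcdhgc4 had 0.60 (SE 0.285, edgeR adjusted p = 0.139), Pcdhga5 had -0.16 and Pcdhga8 -0.11. Pcdhgc5 had a net total of only 15 such counts over the 8 libraries, and in 3 libraries it lay below Pcdhga1. These calls rested on 2 libraries: without replicate 1 of wild-type midbrain 20 of the 21 calls were lost, and without replicate 1 of wild-type forebrain 20 were lost as well. The log2 fold changes of the 21 rows were 0.21 to 0.29 in the first case and 0.15 to 0.26 in the second. Over all 8 omissions that of Pcdhga5 ran from 0.18 to 0.39. The remaining call was Pcdhgc3 both times, with edgeR adjusted p = 0.0171 and 0.018.

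**Figure D4:**
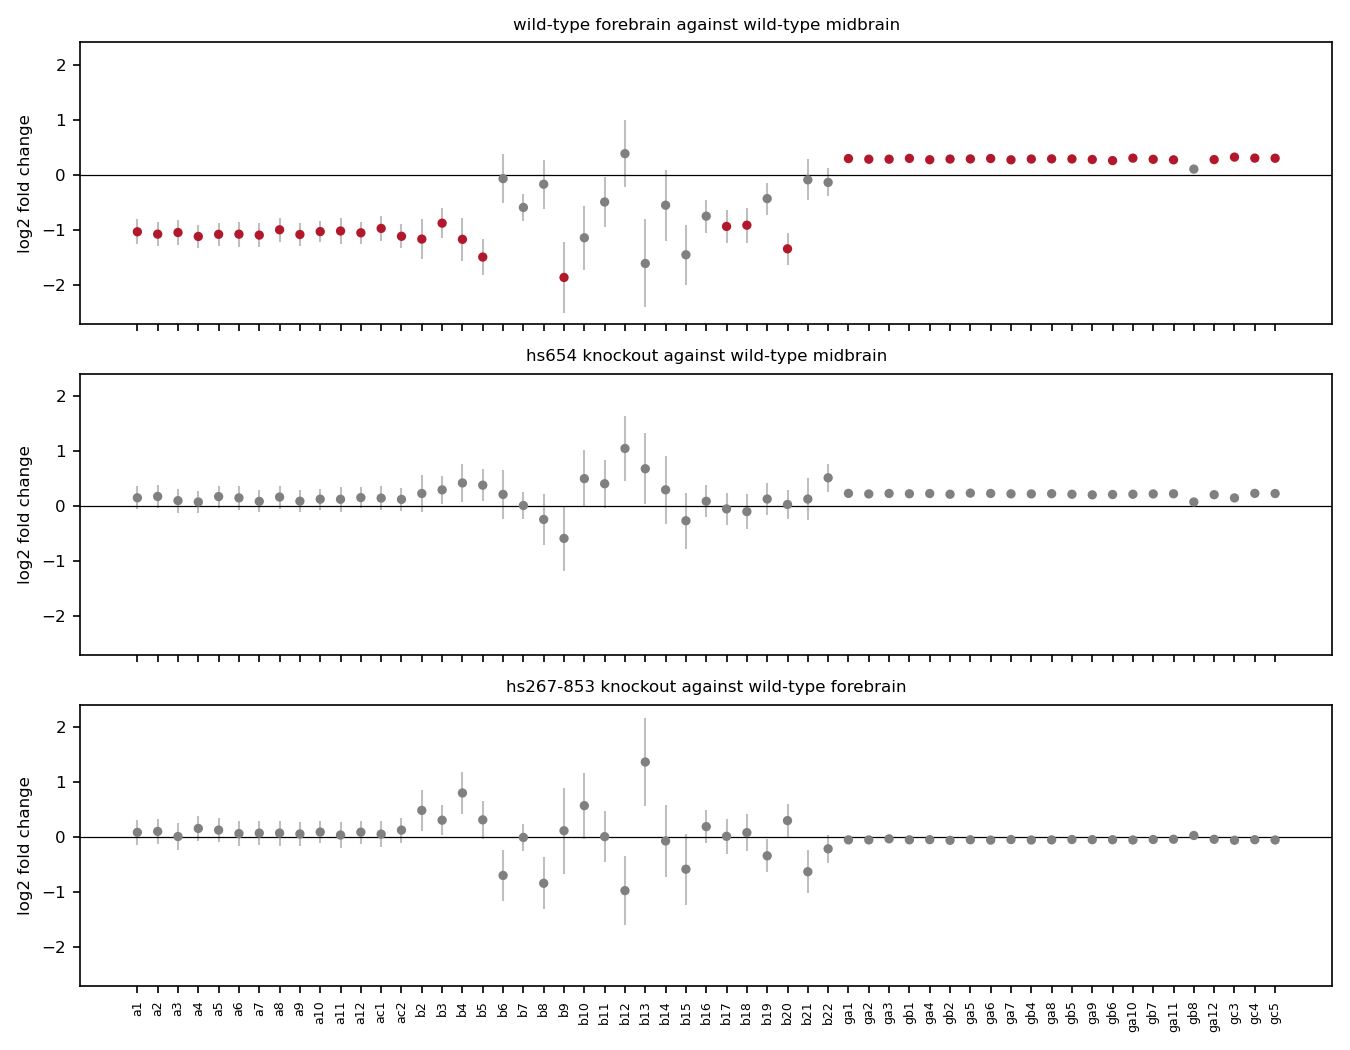
Log2 fold change of the 57 tested genes in 3 comparisons, genes in chromosomal order. Bars are ± 1 SE and red points had an edgeR adjusted p below 0.05. In the tissue comparison at the top, Pcdha and most Pcdhb values are negative and Pcdhg values lie near 0.29, and no gene passed in either knockout comparison.

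Subtracting the count of the lowest member from each row leaves the counts that a gene holds beyond those of the lowest row. The references were Pcdha1 for Pcdha and Pcdhga1 for Pcdhg. The second was chosen after the values were seen, since the lowest Pcdhg row, Pcdhgb8, ends early. Pcdhgc3, a C type with a known role in dendrite branching, held 46.7% of the 18253 counts above Pcdhga1 over 20 Pcdhg genes and 8 libraries (39.8% to 52.4% in single libraries). The exact binomial 95% interval of this share was 46% to 47.4%. The next genes were Pcdhga11 with 7.8%, Pcdhgb6 with 6.85% and Pcdhgb7 with 5.4%. The other C types held little, 2.83% for Pcdhgc4 and a net 0.0822% for Pcdhgc5, which lay below Pcdhga1 in some libraries. In the Pcdha cluster Pcdhac2 held 23.2% of 1285 such counts (18.3% to 30.5% in single libraries), with an interval of 20.9% to 25.6%. Both intervals treat the differences as independent counts. They leave out the counting error of the subtracted row and the spread between pools. Pooled over libraries, Pcdha12 held 14.2% (10.9% to 18.7%), Pcdha11 13.8% (7.69% to 21.6%) and Pcdha10 9.88%. The order did not hold in every library: in wild-type forebrain replicate 1 Pcdha11 had 29 such counts and Pcdhac2 25. These are shares of counts, with no correction for exon length. Among alternate members the share was larger toward the constant exons, with a Spearman correlation between counts above the reference and chromosomal order of 0.794 over 17 Pcdhg genes and 0.645 over 11 Pcdha genes; for Pcdhb it was 0.172 between CPM per kb and order over 22 genes. Genes compared this way share all 8 libraries, and the whole rows of the Pcdha or Pcdhg cluster are near-identical.

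Pcdhgc3 was higher in forebrain also by these counts. Above Pcdhga1 it had 69.0 and 67.4 CPM in midbrain of wild-type embryos (mean 68.2 ± 1.13 SD, n = 2) and 86.1 and 91.3 CPM in their forebrain (mean 88.7 ± 3.72 SD, n = 2). Replicates were close and the tissues did not overlap. The log2 fold change was 0.38 (SE 0.068, edgeR adjusted p = 0.00107). By its whole count it rose by 0.32 (SE 0.0579, edgeR adjusted p = 0.00106), and it passed in all 16 alternative settings, at 0.26 to 0.42. Of the 20 Pcdhg genes whose counts above Pcdhga1 were tested, Pcdhgc3 was the only one to pass. It also held the most such counts, 8523 over 8 libraries, beside 1424 for Pcdhga11. As a share of the Pcdhga1 count, this excess of Pcdhgc3 was 48.6% and 44.1% in wild-type midbrain and 44.4% and 54.6% in wild-type forebrain. The tissues overlapped by that share. Of the 20 genes 8 were positive and 12 negative, with a median of -0.11, beside the 0.29 of whole counts. In the Pcdha cluster all 10 genes tested this way were negative, and 3 passed, beside 15.3% of all genes lower by whole counts. The low-count filter was run again on these counts. Pcdha5, Pcdha6, Pcdha7 and Pcdha9 reached its level only in midbrain libraries, so their negative sign was in part set by the filter. The filter removed 3 members outside those 10. Of these Pcdha2 had 9 and 4 counts above Pcdha1 in wild-type midbrain and 0 and 0 in forebrain, whereas Pcdha8 (0 and 0 against 1 and 4) and Pcdhac1 did not have fewer in forebrain. Pcdhac2 had 3.35 and 4.79 CPM above Pcdha1 in wild-type midbrain and 1.70 and 1.24 CPM in wild-type forebrain, a fall of 1.45 on the log2 scale (SE 0.408, edgeR adjusted p = 0.0173). Pcdha4 fell by 2.47 (edgeR adjusted p = 0.0119), on 25 and 16 counts in wild-type midbrain and 6 and 1 in wild-type forebrain. Pcdha7 fell by 2.43 (edgeR adjusted p = 0.0236), on 17 and 12 counts in wild-type midbrain and 2 and 3 in wild-type forebrain. It reached the level of the filter in wild-type midbrain alone (1.08 and 0.958 CPM), so its call is no support for a fall. The knockout pools did not repeat the fall of Pcdha4. Above Pcdha1 it had 0.774 and 0.546 CPM in hs654 knockout midbrain and 0.738 and 0.589 CPM in hs267-853 knockout forebrain. For Pcdhac2 both knockout forebrain pools lay below both knockout midbrain pools. Pcdha7 had 2 and 5 counts above Pcdha1 in hs654 knockout midbrain and 2 and 2 in hs267-853 knockout forebrain, too few for a comparison.

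**Figure D5:**
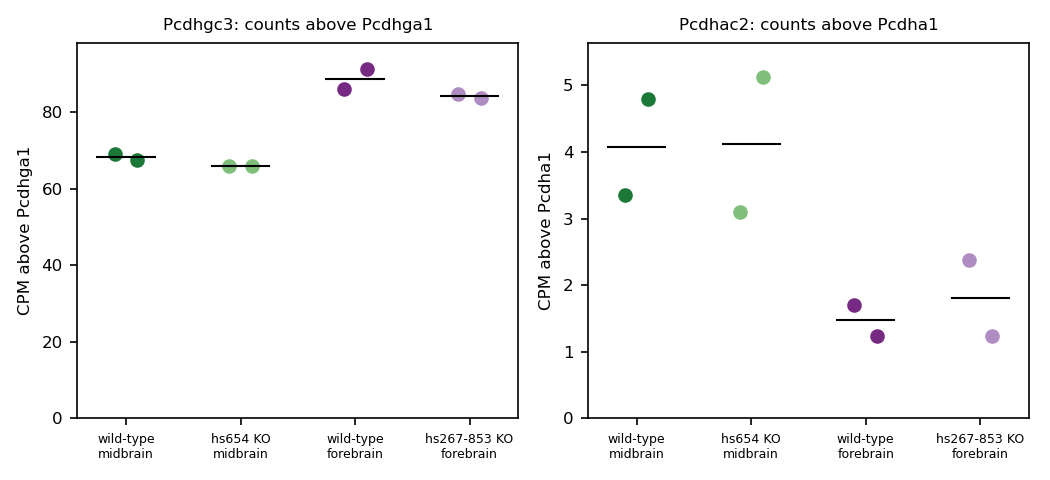
Counts of Pcdhgc3 above Pcdhga1 and of Pcdhac2 above Pcdha1, in CPM; points are the 2 pools of a group and lines their mean. Pcdhgc3 lies at 65.9 to 69.0 CPM in the midbrain groups and at 83.7 to 91.3 CPM in the forebrain groups, and Pcdhac2 is lower in the forebrain groups.

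Levels within the Pcdhb cluster were uneven and kept much of their order across libraries. Per kb of annotated span the mean over 8 libraries ran from 0.17 CPM for Pcdhb9 to 2.1 CPM for Pcdhb17, with a median of 0.783 CPM over the 21 tested genes. Pcdhb7 followed with 1.91 CPM per kb and Pcdhb22 with 1.70 CPM per kb, while Pcdhb13 and Pcdhb12 were near the bottom with 0.229 and 0.266 CPM per kb. Pcdhb1 had 5 counts in wild-type forebrain replicate 1 and 0 in the other 7 libraries, too few for a comparison. Spearman correlations of the counts of the 22 Pcdhb genes, not corrected for length, were 0.894 to 0.945 between replicates (4 pairs of libraries). They were 0.775 to 0.961 between genotypes of a tissue (8 pairs) and 0.789 to 0.968 between tissues (16 pairs). Gene length and the near-empty row of Pcdhb1 enter these values. The 3 ranges overlap. The Pcdhb genes had 534 to 1217 counts in all per library, which limits the precision of any one gene.

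No clustered protocadherin passed in midbrain with the hs654 knockout against wild-type midbrain, where 0% of the 15383 genes passed in edgeR's test and DESeq2 also called 0 of the clustered protocadherins. At an unadjusted p below 0.05, 21 of 57 were higher and 0 lower, beside 1.83% of all genes higher. All 21 were Pcdhg rows, which repeat 1 value, and their adjusted p was 0.992. Both knockout pools lay above both wild-type pools for 22 of 22 Pcdhg genes (17.9% of all genes). Pcdhga5 had 146 and 154 CPM in the wild-type pools, below the 173 and 179 CPM of the knockout pools, a log2 fold change of 0.23 (SE 0.0731, unadjusted p = 0.0074). Pcdhga11 had a log2 fold change of 0.22 (unadjusted p = 0.0069), Pcdhgc4 and Pcdhgc5 0.23 each, and Pcdhgc3 0.15 (SE 0.0585, unadjusted p = 0.0277). In the counts above Pcdhga1, however, Pcdhgc3 was at 69.0 and 67.4 CPM in the wild-type pools, above the 65.9 and 65.9 CPM of the knockout pools (log2 fold change -0.050, SE 0.0704), and the median over the 20 genes was -0.054. The smallest p of these 20 belonged to Pcdhga9, an alternate member, with 5.00 and 3.27 CPM above Pcdhga1 in the wild-type pools and 1.29 and 1.97 CPM in the knockout pools. The pools did not overlap, and the log2 fold change of -1.37 (SE 0.397, unadjusted p = 0.00436, edgeR adjusted p = 0.994) was opposite in sign to that of its whole row, 0.20; this gene was named after its values were seen.

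Pcdha values in the hs654 knockout lay between those of the 2 wild-type pools, so that 0 of 14 stood apart. The log2 fold changes were 0.072 to 0.17, with 0.17 for Pcdha5 (SE 0.198) and Pcdha2 (SE 0.204), 0.15 for Pcdha12, 0.14 for Pcdhac1 and 0.12 for Pcdhac2. All 5 turned negative without wild-type midbrain replicate 1. Among 21 Pcdhb genes 16 were positive and 5 negative. The smallest p belonged to Pcdhb22, with 5.63 and 4.47 CPM in the wild-type pools, below the 8.26 and 6.12 CPM of the knockout pools (log2 fold change 0.51, SE 0.25, unadjusted p = 0.0624). Pcdhb12 had a log2 fold change of 1.04 (SE 0.588, unadjusted p = 0.1), and Pcdhb5 one of 0.38 (SE 0.289).

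In forebrain with the hs267-853 knockout, 0 of 57 passed against wild-type forebrain in edgeR's test and in DESeq2, beside 0.013% of all genes in edgeR, and 0 had an unadjusted p below 0.05 (4.78% of all genes). Of the 22 Pcdhg values 21 were negative, with a median of -0.050. Pcdhgc3 had 280 and 258 CPM in the wild-type pools, overlapping the 261 and 256 CPM of the knockout pools, a log2 fold change of -0.059 (SE 0.0575). Pcdhgb2 was at -0.060, Pcdhga6 at -0.056, Pcdhgc4 at -0.049 and Pcdhgc5 at -0.054. The 14 Pcdha values were all positive and small, from 0.0089 to 0.16, with 0.16 for Pcdha4 (SE 0.221), 0.13 for Pcdha5 and Pcdhac2, and 0.052 for Pcdhac1. Pcdhb genes went both ways, 12 positive and 9 negative. Both knockout pools lay above both wild-type pools for 4 genes and below for 4, all of them Pcdhb (17.2% and 13.9% of all genes). Pcdhb4 had 1.49 and 0.929 CPM in the wild-type pools, below the 2.04 and 2.23 CPM of the knockout pools (log2 fold change 0.80, SE 0.388, unadjusted p = 0.0609). Pcdhb8 had a log2 fold change of -0.84 (SE 0.47) and Pcdhb13 of 1.36 (SE 0.804), both at few counts. Without replicate 1 of wild-type forebrain these were -0.42 and 0.49, and without replicate 2 they were -1.15 and 3.33.

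The knockout effect in midbrain minus that in forebrain gave 0 of 57 past the threshold in edgeR, beside 0.0065% of all genes, and 0 in DESeq2. At an unadjusted p below 0.05 there were 22, against 4.02% of all genes: 21 Pcdhg rows with differences of 0.20 to 0.28 and Pcdhb12 with 2.01 (SE 0.86, unadjusted p = 0.0361). Pcdhga5, Pcdhga6, Pcdhgc4 and Pcdhgc5 each differed by 0.28 and Pcdhgc3 by 0.20 (SE 0.082) on the log2 scale. By the counts above Pcdhga1 the difference for Pcdhgc3 was 0.024 (SE 0.0971). The other values by whole counts were 0.91 (SE 0.646) for Pcdhb6 and 0.72 (SE 0.358) for Pcdhb22. They were 0.090 for Pcdha8 and Pcdhac1, -0.084 for Pcdha4 and -0.0062 for Pcdhac2, with SE of 0.299 to 0.312 for these 4. By the counts above Pcdha1, 1 of 10 Pcdha genes had an unadjusted p below 0.05. It was Pcdha4, at -2.47 (SE 0.917, edgeR unadjusted p = 0.0188, edgeR adjusted p = 0.996). The tissue comparison and both knockout comparisons share wild-type pools, so a low or high wild-type pool enters more than 1 of them.

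Markers of several cell types moved with the tissue difference. All 12 of 12 neuronal marker genes, such as the tubulin gene Tubb3, were lower in wild-type forebrain and passed in edgeR's test, beside 15.3% of all genes lower and 14.3% higher, with a median log2 fold change of -1.52. Their summed level was 4197 and 4046 CPM in wild-type midbrain and 2033 and 1751 CPM in wild-type forebrain, and none was at 0. It was 4426 and 4565 CPM in hs654 knockout midbrain, where 12 of 12 were above both wild-type pools (17.9% of all genes) and 0 passed. Neural progenitor markers were closer, at 4473 and 4474 CPM in wild-type midbrain and 3817 and 3862 CPM in wild-type forebrain, with 4 of 10 higher and 4 lower in forebrain. Of 7 macrophage markers 4 were lower in forebrain (53.71 and 60.78 CPM in midbrain, 38.48 and 30.18 CPM in forebrain), and of 7 endothelial markers 1 was higher. Erythroid markers were highest in wild-type midbrain replicate 1, at 6779 CPM, against 3364 to 4837 CPM in the other 7 libraries, and that pool also had the lowest Pcdha level of the midbrain. Its endothelial sum was the lowest as well, 215.8 CPM against 259.8 to 282.1 CPM in the other 7 libraries. Its mesenchymal sum, 1379 CPM, was the lowest of the midbrain. The sum of 8 mesenchymal markers ran from 1207 to 2149 CPM, without a split by tissue, but 3 of the 8 were higher and 1 lower in forebrain. Prrx1 and Twist1, transcription factor genes of mesenchyme, rose by 2.07 and 1.86 on the log2 scale. The part of these cell types in the protocadherin differences was not tested.

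Genes known to act on or with the clustered protocadherins did not share one direction. Of 20 regulators of promoter choice and chromatin, 4 rose in wild-type forebrain and 2 fell, a share of 30% that is near the 29.6% of all genes. Ctcf, whose product binds protocadherin promoters and their enhancer, had 186 and 182 CPM in midbrain and 211 and 220 CPM in forebrain, a log2 fold change of 0.23 (SE 0.0547, edgeR adjusted p = 0.00673). The DNA methyltransferase gene Dnmt1 rose by 0.33 on the log2 scale, while Tet2, for an enzyme that oxidises methylcytosine, fell by 0.55 and Mau2, for a cohesin loader, fell by 0.31. Of 20 signalling and processing partners 6 rose and 3 fell (45%). Among them Cyfip2, of the WAVE actin regulator, rose by 0.52 and the kinase gene Pkn2 by 0.37 on the log2 scale, Axin1, a partner of Pcdhgc3, rose by 0.29, and Wasf3 fell by 0.57. Of 12 non-clustered protocadherins 2 rose and 4 fell (50%), and these were led by 2 large changes. Pcdh19 rose from 19.7 and 18.1 CPM in midbrain to 132 and 118 CPM in forebrain (log2 fold change 2.72), and Pcdh8 fell from 94.3 and 85.7 CPM to 12.2 and 11.2 CPM (log2 fold change -2.94). Pcdh10 rose by 0.68 and Pcdh11x fell by 1.10 on the log2 scale.

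Of 15 tested genes between or beside the clusters 2 rose and 1 fell in forebrain (20%, below the share of all genes). Taf7, a transcription factor subunit gene that lies between Pcdhb and Pcdhg, had 45.7 and 44.5 CPM in midbrain and 42.8 and 49.8 CPM in forebrain (log2 fold change 0.034, SE 0.0973, edgeR adjusted p = 0.829). Slc25a2, its neighbour and a mitochondrial carrier gene, had 1 to 8 counts per library and was not tested. Slc35a4 and Arap3 rose by 0.43 and 0.49, and Ik fell by 0.18 on the log2 scale. In both knockout comparisons and in their difference, 0 genes of these 4 lists passed in edgeR's test.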

How the data were processed

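The authors deposited 1 table of raw counts for each of the 8 RNA-seq libraries, with gene symbols and no normalization. STAR, HTSeq, DESeq2 and the build mm10 are named in the submitters' processing notes, without roles or versions. The annotation, the strand setting and the handling of reads in exons of several genes are not given in the sources used here. The 5 rows that name no gene were left out; genes held 40.69% to 44.09% of the counts in genes, no feature and ambiguous positions.

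Counts were tested with edgeR 4.0.16 in R 4.3.3 (TMM scaling, filterByExpr by group, quasi-likelihood fit of group means over all 8 libraries, two-sided, Benjamini-Hochberg over 15383 genes, threshold 0.05), and DESeq2 1.42.0 was an alternative. CPM use TMM-scaled library sizes. Replicates were taken from the titles, and no pair of pools agreed within sampling noise (a chi-square of 3.75 to 7.74 per degree of freedom). In counts above a cluster's lowest member, values below 0 were set to 0 before the test. On simulated data for the tissue comparison (15119 genes) edgeR recovered 92.4% of genes changed by 1 on the log2 scale and 56.9% of those changed by 0.585, with 11 false among 172 calls. Every simulated gene had the same dispersion, 0.0058, whereas real genes differ in theirs. These shares are therefore not the power for single clustered protocadherins. Positions are from a RefSeq table of GRCm38.p6, which matched all 58 genes.

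Named genes were, per comparison, the 10 largest rises and 10 largest falls past the threshold, or the 3 with the smallest p in each cluster where none passed, with the highest and lowest members and the C types; of the other lists, up to 4 with the largest changes, Ctcf, Taf7 and Slc25a2. The members, lists and rules were chosen with earlier results of these data known. Alternatives were RLE scaling, other filters on low counts, DESeq2, the replicate block, fewer libraries and counts above the lowest member. One check of the tissue labels is not reported here.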

Additional observations from a re-analysis of the deposited data

How the results depend on the processing

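In the tissue comparison 43 clustered protocadherins passed, and 18 to 45 did with 1 of the 8 libraries left out. The count fell to 14, of which 2 rose and 12 fell, with counts above the lowest member and Pcdhga1 as the Pcdhg reference, a setting added after the values were seen; the reference genes keep their whole count in it. With Pcdhgb8 as that reference 33 passed. It was 43 with RLE scaling, 45 without a filter, 37 with a mean of at least 50 counts (fewer genes tested), 38 with DESeq2 and 44 with only the 4 libraries compared. The replicate block gave 42 in the tissue comparison and 0 in the knockout comparisons. Deviations of same-numbered libraries from their group means had correlations of -0.0159 to 0.0851. With 2 replicates per group this cannot exclude that the numbers pair libraries. No named member passed in a knockout comparison or in the difference under any alternative run. With counts above Pcdhga1, signs turned for Pcdhga8 (-0.11) and Pcdhga5 (-0.16) in the tissue comparison, Pcdhgc3 (-0.050) in the hs654 comparison and Pcdhgc4 (0.045) in the hs267-853 comparison. The difference for Pcdhac2 was near 0 and turned to 0.0076 with RLE scaling, 0.0063 without a filter, 0.0126 with a mean of at least 50 counts and 0.0028 with DESeq2. With 1 library left out, log2 fold changes in the hs654 comparison ran from -0.091 to 0.47 for Pcdha5, -0.12 to 0.51 for Pcdha2, -0.095 to 0.43 for Pcdha12, -0.16 to 0.50 for Pcdhac1 and -0.17 to 0.47 for Pcdhac2. In the hs267-853 comparison they ran from -0.054 to 0.42 for Pcdha4, -0.072 to 0.37 for Pcdha5, -0.15 to 0.31 for Pcdhac1, -0.065 to 0.36 for Pcdhac2, -0.12 to 0.0009 for Pcdhgc3, -0.17 to 0.060 for Pcdhgb2, -0.16 to 0.060 for Pcdhga6, -0.15 to 0.059 for Pcdhgc4 and -0.16 to 0.063 for Pcdhgc5. For the difference they ran from -0.36 to 0.23 for Pcdha4, -0.22 to 0.46 for Pcdha8, -0.21 to 0.45 for Pcdhac1, -0.30 to 0.34 for Pcdhac2 and -0.15 to 1.48 for Pcdhb6. The cause of these turns was not tested. A library left out leaves 1 pool in a group, which is then assumed to vary like the other groups.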
